A study of Mus musculus with 32 samples.

Results

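The strain difference in the RNA of lung patrolling monocytes (pMo) is described here, from 4 RNA-seq libraries of the 16 in the series: 2 of pMo from C57BL6J mice and 2 of pMo from DBA2J mice. Members were taken by their labels for cell type, strain and assay. Both strains are inbred laboratory mice with no engineered allele named, and both groups are labelled as receiving no treatment although "activated" stands in the title of the series; age is not given in the labels. Lungs were digested while warm on a rotator and cells were sorted on the leukocyte marker CD45, the macrophage markers F4/80 and CD64, the integrins CD11b and CD11c, and Ly6c, Ly6g and SiglecF. One label field calls the pMo macrophages and the series design calls them monocytes. The other RNA libraries are of inflammatory monocytes (iMo), interstitial macrophages (IM) and alveolar macrophages (AM), 2 per strain each.

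Patrolling monocytes are the Ly6C-low monocytes that crawl along the inside of vessel walls and take up particles and dying cells there. They arise largely from classical, Ly6C-high monocytes under the control of the nuclear receptor Nr4a1, and they are marked by Cx3cr1, Spn (CD43), Ace and Treml4. Cd22 is a sialic acid-binding lectin (Siglec) with inhibitory motifs, best known from B cells. P2rx1 is an ATP-gated cation channel known from platelets and neutrophils, and Kcne3 is an accessory subunit that tunes voltage-gated potassium channels.

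Levels are given as TPM (transcript abundance scaled to a fixed library total) after the entries Rn45s and Mir6236 were removed and each library was scaled back to a total of 1e+06. Those 2 entries held 43.0% to 57.4% of the listed TPM in the 4 pMo libraries. Levels were not compared between genes, since the gene length behind the deposited TPM is unclear. Values for a strain are listed as replicate 1, then replicate 2. Whether replicates are different animals is not stated, and p-values therefore reflect only the spread between the samples at hand. That spread was estimated for each gene from all 16 RNA libraries. An SE is thus shared by the 4 cell types and is not the spread of the pMo libraries alone. A difference is DBA2J minus C57BL6J on the log2(TPM + 1) scale, ± SE, and a gene was called at an adjusted p under 0.05 in limma; fold values are ratios of mean TPM. Depth is unknown because TPM keeps no read counts. In bulk RNA, fewer cells of a type and less RNA per cell cannot be told apart.

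The libraries carried the pMo signature in both strains. Summed over 25 patrolling monocyte markers, the level was 28520 and 26600 TPM in C57BL6J pMo and 27100 and 27870 in DBA2J pMo, above the 10010 to 14780 TPM of the iMo libraries. The patrolling sum was 7442 to 10540 TPM in IM and 12110 to 15230 in AM. The 19 classical monocyte markers in the table summed to 13040 to 15880 TPM in pMo and to 39360 to 48630 in iMo. That sum was 20750 to 31010 in IM and 27400 to 31950 in AM. None of the 25 patrolling markers was called between strains (3 had an unadjusted p under 0.05, limma): Nr4a1 stood at 2739 and 2229 TPM in C57BL6J and 3383 and 3292 in DBA2J, and Ace at 4096 and 3253 against 3772 and 3852. None of the 8 tested sort panel genes was called either, and 0 had an unadjusted p under 0.05; Ptprc (CD45) differed by -0.20 ± 0.35, Adgre1 (F4/80) by -0.25 ± 0.22, Itgax (CD11c) by -0.33 ± 0.25, Itgam (CD11b) by -0.27 ± 0.21, Fcgr1 (CD64) by 0.26 ± 0.27, Ly6c2 by 0.46 ± 0.59, Ly6c1 by -0.72 ± 0.85 and Siglecf by -0.31 ± 0.53. The libraries correlated across genes with r of 0.933 within C57BL6J, 0.940 within DBA2J, and 0.894 to 0.922 between the strains.

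Of 13873 tested genes, 678 (4.89%) were called in pMo, 343 higher (2.47%) and 335 lower (2.41%) in DBA2J. At least 2-fold differences were seen in 240 of the higher and 267 of the lower. Protein-coding genes made up 309 and 295 of the calls. With only the 4 pMo libraries in the fit, 41 of the 678 calls remained. Over all 13873 tested genes, 7297 (52.6%) were below 0 in pMo and 2438 had an unadjusted p under 0.05 (limma). The counts given for gene lists stand beside these. With the TPM scaled as deposited, ribosomal entries included, the median difference of all genes moved from -0.02 to -0.15 and the calls became 167 higher and 282 lower. Without C57BL6J pMo replicate 2 the calls were 161 higher and 131 lower, without DBA2J pMo replicate 1 they were 186 and 150, and without DBA2J pMo replicate 2 they were 183 and 194.

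The genes of the comparison's title were far higher in DBA2J pMo. Cd22 was at 114 and 130 TPM in C57BL6J and at 2458 and 2779 in DBA2J, a 21.4-fold difference (4.41 ± 0.35, adjusted p = 4.63e-05). P2rx1 was at 4.04 and 5.66 TPM against 199 and 166, which is 37.6-fold (4.98 ± 0.42, adjusted p = 7.61e-05). For Kcne3 the libraries held 7.98 and 8.74 TPM against 254 and 199.9, a 27.1-fold difference (4.60 ± 0.17, adjusted p = 1.75e-07). In all 3 genes both DBA2J libraries lay above both C57BL6J libraries, as did one strain above the other in 42.6% of all tested genes.

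The same genes were measured in the other cell types, whose libraries are separate. Cd22 differed by 4.48 in iMo and 2.13 in IM, but by -3.87 in AM, where C57BL6J held 180.2 and 178 TPM and DBA2J 8.32 and 15.4. P2rx1 differed by 4.42 in iMo, 4.48 in IM and 0.96 in AM, and Kcne3 by 4.71, 4.28 and 1.36. Tested directly, the pMo difference was not separated from that of iMo for any of them (adjusted p = 1 for Cd22, 0.982 for P2rx1 and 0.999 for Kcne3). The pMo minus iMo estimates were -0.07 ± 0.49, 0.55 ± 0.60 and -0.11 ± 0.24. Against the mean of the other 3 cell types the pMo difference was larger for Cd22 (adjusted p = 0.00279) and Kcne3 (0.0316) and did not pass for P2rx1 (0.16). Among C57BL6J libraries AM held the most Cd22, and among DBA2J libraries pMo did, ahead of IM and iMo, whose ranges overlapped.

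**Figure D1:**
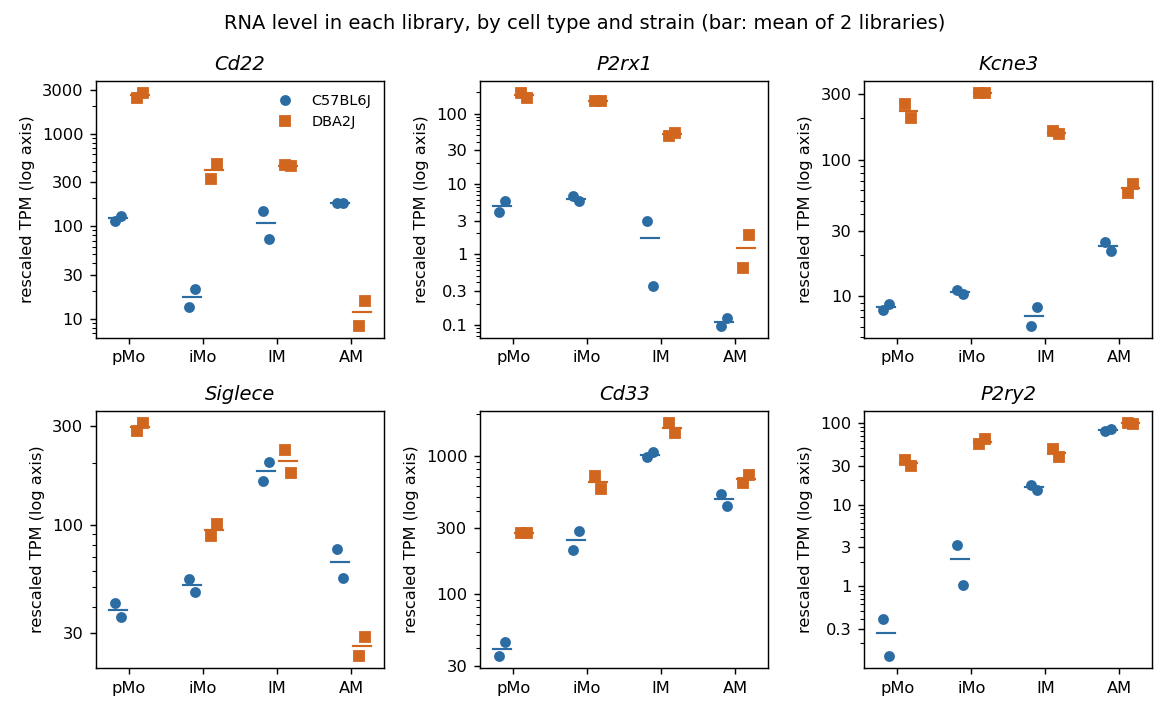
Rescaled TPM on a log axis for Cd22, P2rx1, Kcne3, Siglece, Cd33 and P2ry2 in every library, by cell type (x axis) and strain (circles C57BL6J, squares DBA2J; bars are means of 2 libraries). In pMo the squares lie above the circles in all 6 panels, and for Cd22 and Siglece the order turns over in AM.

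Open chromatin was measured in pMo by ATAC-seq, deposited as 1 list of reproducible peaks per strain with the authors' score. The lists hold 45534 peaks for C57BL6J and 26592 for DBA2J, so a peak missing from the DBA2J list is the more common case. Within 1000 bases of the gene start, Cd22, P2rx1, Kcne3 and P2ry2 had a peak in the DBA2J list and none in the C57BL6J list. The Cd22 peak lay at chr7:30880238-30880438 (score 42.8), 4 bases by its centre from the gene start deposited with the TPM. The RefSeq promoter of Cd22 did not sit at that start and is not printed. Promoters of 3 of these genes, and of Trim30d and Mndal, which were lower in DBA2J and had a peak in the C57BL6J list alone, are printed to show the reference sequence under those peaks. The windows run from 250 bases before to 50 after the start, are RefSeq sequence of GRCm38.p6 (the mm10 assembly, which is a C57BL6J genome), and read 5′ to 3′ on the gene's strand. Capitals mark bases inside the peak.
Kcne3: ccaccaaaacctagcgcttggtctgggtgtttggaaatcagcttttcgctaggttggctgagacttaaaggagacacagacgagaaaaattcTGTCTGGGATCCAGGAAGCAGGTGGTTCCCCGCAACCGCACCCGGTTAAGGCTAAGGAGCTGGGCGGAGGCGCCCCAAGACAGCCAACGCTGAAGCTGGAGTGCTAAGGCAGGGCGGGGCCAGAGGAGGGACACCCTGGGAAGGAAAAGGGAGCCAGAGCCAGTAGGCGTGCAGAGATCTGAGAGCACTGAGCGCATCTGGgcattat
P2rx1: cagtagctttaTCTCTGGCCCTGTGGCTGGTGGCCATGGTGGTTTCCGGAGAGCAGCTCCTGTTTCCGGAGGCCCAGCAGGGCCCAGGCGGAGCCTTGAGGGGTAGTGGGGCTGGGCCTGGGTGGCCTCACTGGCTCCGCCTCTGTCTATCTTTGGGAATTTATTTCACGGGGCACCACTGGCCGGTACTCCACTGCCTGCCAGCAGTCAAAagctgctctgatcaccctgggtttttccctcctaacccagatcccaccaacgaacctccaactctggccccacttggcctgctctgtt
P2ry2: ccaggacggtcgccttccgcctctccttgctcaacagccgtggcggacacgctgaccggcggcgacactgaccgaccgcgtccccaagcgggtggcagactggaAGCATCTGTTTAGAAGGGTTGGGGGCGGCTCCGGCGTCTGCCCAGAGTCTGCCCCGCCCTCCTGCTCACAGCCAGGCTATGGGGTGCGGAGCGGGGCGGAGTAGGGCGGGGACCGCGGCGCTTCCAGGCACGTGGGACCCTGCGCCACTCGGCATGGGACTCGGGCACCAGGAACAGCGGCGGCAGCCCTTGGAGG
Trim30d: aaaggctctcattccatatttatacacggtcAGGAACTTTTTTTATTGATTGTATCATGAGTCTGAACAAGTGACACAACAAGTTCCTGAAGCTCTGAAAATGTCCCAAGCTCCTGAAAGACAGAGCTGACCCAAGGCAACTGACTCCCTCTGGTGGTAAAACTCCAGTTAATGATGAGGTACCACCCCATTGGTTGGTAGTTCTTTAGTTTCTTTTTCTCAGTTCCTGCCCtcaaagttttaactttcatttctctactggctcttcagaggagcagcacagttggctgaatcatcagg
Mndal: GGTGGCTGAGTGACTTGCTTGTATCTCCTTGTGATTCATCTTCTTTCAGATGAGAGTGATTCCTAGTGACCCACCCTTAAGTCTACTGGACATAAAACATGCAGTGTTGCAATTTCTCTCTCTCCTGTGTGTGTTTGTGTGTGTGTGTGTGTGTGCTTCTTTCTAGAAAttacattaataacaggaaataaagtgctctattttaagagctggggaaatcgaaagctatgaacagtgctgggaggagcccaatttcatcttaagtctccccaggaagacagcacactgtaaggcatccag
Kcne3's window is chr7:100178433-100178732 on the plus strand, with the DBA2J peak at chr7:100178525-100178725 (score 40.5). That of P2rx1 is chr11:72998895-72999194, plus strand, with the peak at chr11:72998906-72999106 (score 32.4). P2ry2 is on the minus strand at chr7:101011949-101012248, with its peak at chr7:101011944-101012144 (score 57.8). Trim30d is at chr7:104507800-104508099 and Mndal at chr1:173880138-173880437, both minus strand, with C57BL6J peaks at chr7:104507868-104508068 (score 59.2) and chr1:173880269-173880469 (score 31.5). Bases G and C make up 57.7%, 60.7% and 71.0% of the first 3 windows and 42.7% and 43.0% of the other two. DBA2J sequence was not used here.

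Across all genes the peak lists moved with the RNA calls in part. A peak near the start in the DBA2J list alone was found at 29 of the 343 genes higher in DBA2J (8.45%), 4 of the 335 lower (1.19%) and 2.44% of all tested genes. A peak in the C57BL6J list alone was found at 37 of the genes lower in DBA2J (11.04%), 27 of those higher (7.87%) and 5.09% of all. Most called genes had a peak in both lists, 51.3% of those higher and 60.0% of those lower, against 66.1% of all tested genes. Siglece went the other way: its RNA was higher in DBA2J and its peak (score 33.6) was in the C57BL6J list alone. The same held for Cd72, Fpr2, Hcar2 and H2-Bl. Vipr2, a neuropeptide receptor gene called lower in DBA2J, had a peak in the DBA2J list alone. How mapping DBA2J reads to a C57BL6J genome changes either the peaks or the TPM was not tested.

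**Figure D2:**
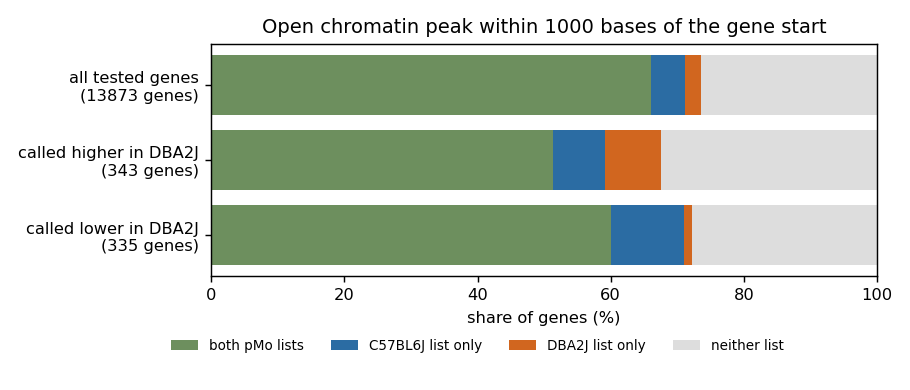
Share of genes (x axis, %) with a pMo peak within 1000 bases of the start in both strains' lists, in 1 list or in neither, for all 13873 tested genes and the 343 and 335 called genes. The DBA2J-only share is 8.45% among genes higher in DBA2J and 1.19% among those lower.

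Siglecs are sialic acid-binding receptors that mostly carry inhibitory motifs. In DBA2J 4 of 8 tested members were called higher and 0 lower, against 2.47% and 2.41% of all tested genes. Below 0 were 2 of 8, and the median difference was 0.99 against -0.02 over all genes. Cd22, a gene of the comparison's title, is among the 4 and enters the median, so neither is independent of that choice. Siglece, an inhibitory receptor of myeloid cells, was at 42.1 and 35.9 TPM in C57BL6J and 283 and 311 in DBA2J (7.61-fold, 2.90 ± 0.20, adjusted p = 1.83e-05). Cd33, its relative on the same chromosome with a gap of 117.9 kb between the genes, was at 35.1 and 44.3 TPM against 273 and 275 (6.90-fold, 2.77 ± 0.19, adjusted p = 1.53e-05). Mag, the myelin-associated Siglec whose gene lies 18.8 kb from Cd22, was low in both strains, with 1.73 and 1.72 TPM against 5.60 and 8.19. It was called as well (1.51 ± 0.22, adjusted p = 0.00247). The other 4 tested members were not called, Siglec1 at 0.46, Siglecg at 0.34, Siglech at -0.22 and Siglecf at -0.31. Siglece differed less in iMo (0.87 ± 0.20), and the difference between the cell types passed the test (2.02 ± 0.28, adjusted p = 0.0291), while that of Cd33 did not (1.37 ± 0.26, adjusted p = 0.137).

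Receptors for extracellular nucleotides gave 3 calls among 17 tested purinergic genes, all higher in DBA2J, against 2.47% of all tested genes. The list's median difference was 0.17, and 5 of 17 were below 0. Beside P2rx1, a gene of the comparison's title, the calls were P2ry2, a receptor for ATP and UTP, and P2ry6, a receptor for UDP. The genes P2ry2 and P2ry6 lie 32.2 kb apart on chromosome 7. P2ry2 was at 0.40 and 0.14 TPM in C57BL6J and at 35.6 and 29.7 in DBA2J (4.73 ± 0.29, adjusted p = 6.26e-06). P2ry6 was at 50.6 and 49.0 TPM against 146 and 144 (1.52 ± 0.13, adjusted p = 8.73e-05). Both libraries of DBA2J were above both of C57BL6J for each gene. The strains' libraries did not overlap, in either direction, in 42.6% of all tested genes. P2rx4 (0.31) and P2rx7 (0.15), the ATP-gated channels known from macrophages, and the ectonucleotidase Entpd1 (0.08) were not called. Kcne3, itself a gene of the comparison's title, was the only call among 8 tested potassium channel subunits. Its partners Kcnq1 (0.02) and Kcna3 (0.07) were not called.

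Cd22 is also a B cell gene, and B cell transcripts moved with it. Of 21 tested B cell markers, Cd22 and Fcer2a, the low-affinity IgE receptor (10.3 and 9.75 TPM against 59.6 and 54.1, 2.39 ± 0.55, adjusted p = 0.0328), were called, 13 had an unadjusted p under 0.05, and the median difference was 1.58 with 0 below 0. The Fcer2a call was lost in 7 of 22 alternative settings. Cd79a, a chain of the B cell receptor, was at 37.5 and 49.9 TPM against 211 and 92.8 (adjusted p = 0.104). Without Cd22 the other 20 markers summed to 336 and 524 TPM in C57BL6J pMo and to 1845 and 863 in DBA2J pMo. Between the DBA2J replicates that sum was higher in replicate 1, while Cd22 was higher in replicate 2. In iMo the sum without Cd22 was 198 and 237 TPM against 547 and 301. The part of B cell RNA in the Cd22 value was not tested.

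Among 24 tested T and NK cell markers 3 were called lower in DBA2J pMo and 0 higher, all 3 known from natural killer (NK) cells. Below 0 were 19 of 24 (79.2%), against 52.6% of all tested genes. Gzmb, the cytotoxic protease granzyme B, was at 61.8 and 116 TPM against 2.64 and 18.9 (-3.33 ± 0.83, adjusted p = 0.0478), Klrd1 (CD94) differed by -2.98 ± 0.72 (0.042) and Klrb1c (NK1.1) by -2.76 ± 0.65 (0.0371). Over 22 alternative settings the call was lost in 10 for Gzmb (adjusted p from 0.0134 to 0.388), 10 for Klrb1c (0.0117 to 0.25) and 8 for Klrd1 (0.0234 to 0.354). The 28 markers in the table summed to 588 and 758 TPM in C57BL6J and 134 and 351 in DBA2J; the T cell receptor chain genes Cd3d, Cd3e and Cd3g were below 5 TPM in all 4 libraries. Klra23, an NK receptor of a gene cluster with near-identical members, was lower too (9.06 and 26.7 TPM against 0.36 and 2.02, adjusted p = 0.0204) and its reads may be shared with its relatives. DBA2J mice are known to lack Klrd1 protein, and the part of NK cells in these values was not tested.

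Of 8 tested eosinophil, basophil and mast cell markers 3 were called, all lower in DBA2J: Cma1, mast cell chymase (7.18 and 5.37 TPM in C57BL6J and listed at 0 in both DBA2J libraries, adjusted p = 0.000211), Ms4a2, a chain of the high-affinity IgE receptor (5.64 and 8.71 against 0 and 1.41, adjusted p = 0.0115), and the transcription factor Gata2 (23.6 and 20.9 against 0.55 and 2.57, adjusted p = 0.0279). The Gata2 call was lost in 6 of 22 alternative settings and that of Ms4a2 in 5 of 20. The eosinophil receptor genes Ccr3 (1.55 ± 0.56) and Il5ra (0.42 ± 0.36) were not called. Of 15 tested platelet genes Itgb3, an integrin chain, was called higher (16.4 and 13.4 TPM against 78.8 and 90.5, 2.44 ± 0.53, adjusted p = 0.0249). The Itgb3 call was lost in 6 of 22 alternative settings. Of 22 interstitial macrophage markers 2 were called higher, the folate receptor gene Folr2 (2.31 and 5.26 TPM against 24.2 and 19.2, 2.31 ± 0.40, adjusted p = 0.0083) and Cd72, an inhibitory receptor also known from B cells (17.4 and 25.7 against 102 and 82.9, 2.06 ± 0.25, adjusted p = 0.000854). Neutrophil markers gave 1 call, Padi4, lower in DBA2J (-1.57 ± 0.25, adjusted p = 0.00466). No gene of the dendritic cell, endothelial, epithelial and fibroblast, alveolar macrophage or erythroid lists was called (3 of 16, 3 of 16, 5 of 13, 2 of 24 and 0 of 8 had an unadjusted p under 0.05, limma). The erythroid sum was 364 and 370.1 TPM in C57BL6J and 85.9 and 697 in DBA2J.

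**Figure D3:**
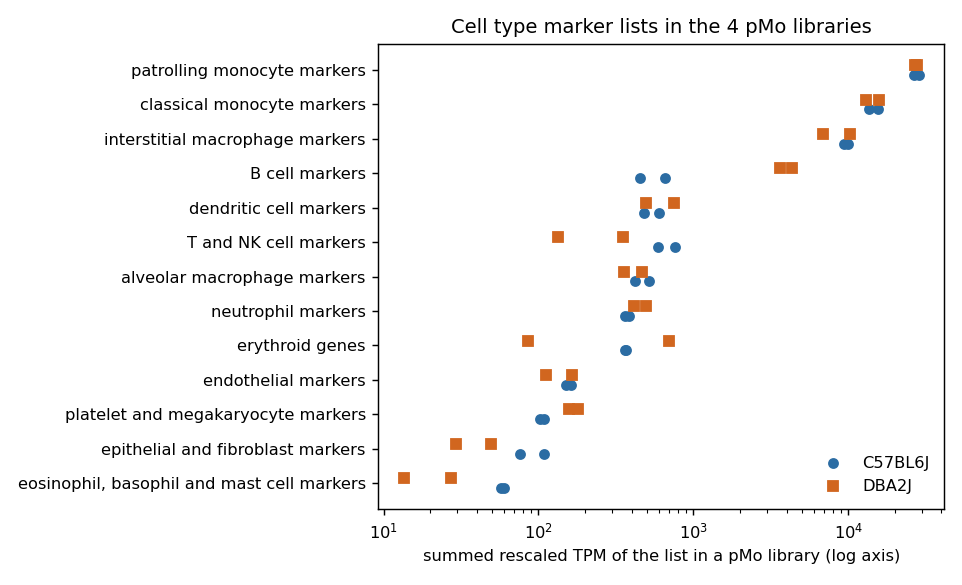
Summed rescaled TPM (x axis, log scale) of each cell type marker list in the 4 pMo libraries (circles C57BL6J, squares DBA2J). Patrolling monocyte markers stand at 26600 to 28520 TPM, and the B cell and T and NK cell lists separate the strains in opposite directions. The B cell sum includes Cd22, which holds 2458 and 2779 of its 4303 and 3642 TPM in DBA2J. Without Cd22 that sum is 336 and 524 TPM in C57BL6J and 1845 and 863 in DBA2J (not plotted). Lists are compared between libraries and not with each other.

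Of 70 tested stress-response genes 11 were called lower in DBA2J pMo and 0 higher, and 59 did not pass. Immediate early genes are switched on within minutes of a stimulus, without new protein synthesis. Of 40 tested, 7 were called lower and 0 higher, against 2.41% and 2.47% of all tested genes. The median difference was -0.46, and 30 of 40 (75%) were below 0, against 52.6% of all tested genes. Fos, a subunit of the AP-1 transcription factor, was at 1053 and 976 TPM in C57BL6J and at 538 and 141 in DBA2J (-1.88 ± 0.46, adjusted p = 0.0445). Dusp1, a phosphatase that turns off MAP kinases, was at 1026 and 655 TPM against 329.9 and 173 (-1.77 ± 0.37, adjusted p = 0.0204). Both DBA2J libraries were below both C57BL6J libraries for these genes, and DBA2J replicate 2 was the lowest. No overlap between the strains, in either direction, was seen in 42.6% of all tested genes. Nr4a2 (-1.63 ± 0.27), Nfil3 (-1.40 ± 0.26), Sik1 (-1.01 ± 0.24), Klf6 (-0.88 ± 0.15) and Btg1 (-0.83 ± 0.15) were the other calls. The calls of Fos and Sik1 were lost in 13 and 12 of 22 alternative settings. The count was 4 without DBA2J pMo replicate 1, 3 without DBA2J pMo replicate 2 and 4 under median-of-ratios scaling.

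Heat shock proteins and their co-chaperones fold damaged proteins, and 4 of 30 tested were called lower and 0 higher. The median was -0.52, and 25 of 30 (83.3%) were below 0, against 52.6% of all tested genes. Hspa8, the constitutive Hsc70 chaperone, was at 512 and 361 TPM in C57BL6J and 62.8 and 82.5 in DBA2J (6.005-fold, -2.56 ± 0.38, adjusted p = 0.00337); it has many near-identical processed copies, so its value is uncertain. Dnaja1, an Hsp40 co-chaperone, was at 66.7 and 78.7 TPM against 19.1 and 34.3 (-1.46 ± 0.35, adjusted p = 0.0425). The Dnaja1 call was lost in 10 of 22 alternative settings. Chordc1, an Hsp90 co-chaperone, differed by -1.25 ± 0.24 (adjusted p = 0.0139) and Hmox1, which degrades haem, by -0.94 ± 0.17 (0.0104). The count was 2 without C57BL6J pMo replicate 2 and 2 without DBA2J pMo replicate 1.

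The stress lists were not flat between strains in iMo. Of all tested genes 453 (3.27%) were called in iMo, 1.47% of the tested genes in the lower direction. There 4 of 40 immediate early genes were called lower, Nr4a2 (-1.31), Klf6 (-0.68), Sik1 (-1.11) and Socs3 (-1.13). The iMo median of that list was -0.41, and 35 of 40 (87.5%) were below 0, against 45% of all tested genes. Among heat shock genes Hspa8 was lower in iMo (-2.50 ± 0.38, adjusted p = 0.00381) and Cryab, a small heat shock protein, higher (3.22 ± 0.61, adjusted p = 0.0148). Tested directly in limma, the pMo and iMo differences were separated for 0 of the 70 genes, with 6 at an unadjusted p under 0.05. So Fos was called in pMo (-1.88) and not in iMo (-0.70 ± 0.46), but the difference between them was -1.18 ± 0.65 (adjusted p = 0.976). Without DBA2J pMo replicate 1, 1 of the 70 was called. The iMo count for immediate early genes was 2 without C57BL6J iMo replicate 1, 1 without C57BL6J iMo replicate 2, 0 without DBA2J iMo replicate 1 and 1 without DBA2J iMo replicate 2; the heat shock count was 2 without C57BL6J iMo replicate 1 and 0 without DBA2J iMo replicate 1. The labels give no batch, sort date or time of day for any library.

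**Figure D4:**
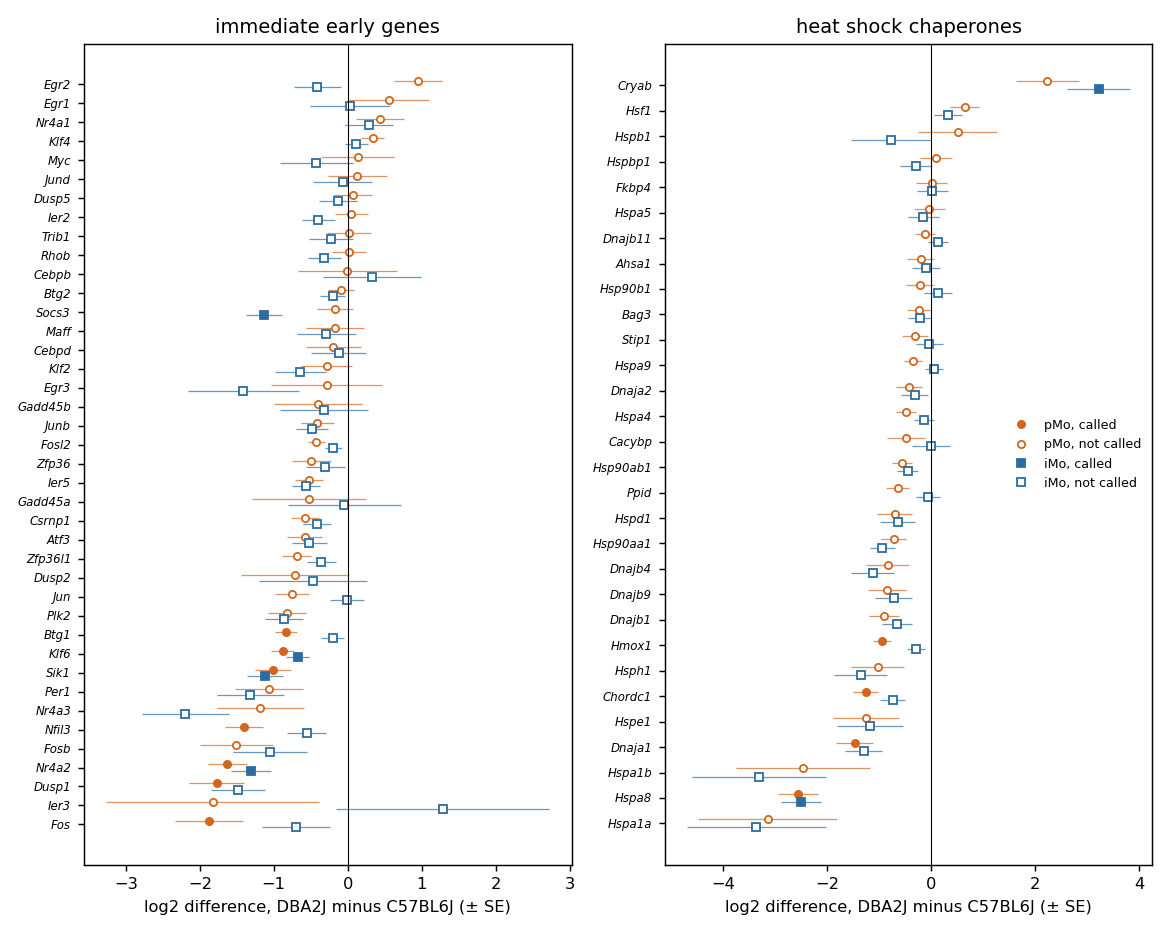
Log2 difference (x axis, DBA2J minus C57BL6J, bars are ± SE) of each of 40 immediate early genes (left) and 30 heat shock genes (right) in pMo (circles) and iMo (squares); filled symbols were called. Most points of both cell types lie below 0, and 11 are filled for pMo and 6 for iMo.

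Genes of NF-kB signalling gave 4 calls among 31 tested, all lower in DBA2J, against 2.41% of all tested genes called lower. The list as a whole lay near all genes. Its median difference was -0.08, against -0.02, and 18 of 31 (58.1%) were below 0, against 52.6%. Ccl3 and Ccl4, chemokines that draw in monocytes and T cells, were at 171 and 307 TPM against 30.1 and 78.6, and at 88.2 and 121 against 4.40 and 20.5 (adjusted p = 0.0199 and 0.0124). NK cells also make both, and Gzmb and Klrd1 above were lower in the same libraries. The part of NK cells in the Ccl3 and Ccl4 values was not tested. Tnfsf9 (4-1BB ligand) differed by -2.69 ± 0.63 (adjusted p = 0.0371), a call lost in 10 of 22 alternative settings. Cxcl2, a neutrophil chemokine, was at 38.6 and 50.9 TPM against 15.1 and 11.3 (-1.68 ± 0.35, adjusted p = 0.0207); in iMo it was higher in DBA2J (1.53 ± 0.35), and the cell types differed (-3.22 ± 0.50, adjusted p = 0.0431). Interferon-stimulated genes had 0 calls among 34 (median -0.31, 3 with an unadjusted p under 0.05, limma). Below 0 were 28 of 34 (82.4%) in pMo and 30 of 34 (88.2%) in iMo, against 52.6% and 45% of all tested genes.

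Of 26 tested chemokine and lipid trafficking receptors, 2 were called higher and 1 lower in DBA2J pMo. Their median difference was 0.44, against -0.02 over all genes. Below 0 were 7 of the 26 (26.9%), against 52.6% of all tested genes. Cxcr4, the receptor for the marrow-retention chemokine Cxcl12, was at 1244 and 856 TPM in C57BL6J and 340.4 and 316 in DBA2J (3.20-fold, -1.65 ± 0.26, adjusted p = 0.00447), and differed as much in iMo (-1.63). Fpr2, a formyl peptide receptor, was higher (31.5 and 41.6 against 88.2 and 158 TPM, 1.68 ± 0.25, adjusted p = 0.00349), as was C5ar1, the receptor for complement C5a (48.1 and 40.0 against 131 and 83.9, 1.24 ± 0.21, adjusted p = 0.00636). Of 10 Fc receptor genes Fcgrt, the neonatal Fc receptor that recycles IgG, was called at 136 and 120 TPM against 396 and 396 (3.09-fold, 1.62 ± 0.18, adjusted p = 0.000438), beside Fcer2a. Among Toll-like receptor genes Tlr1 was lower (-1.75 ± 0.29, adjusted p = 0.00654) and the adaptor Tirap higher (0.87 ± 0.16, adjusted p = 0.0115). Jaml, a junctional adhesion molecule of leukocytes, was higher at low level (2.58 and 4.79 against 14.3 and 15.3 TPM, 1.79 ± 0.30, adjusted p = 0.00692). Cd177, a neutrophil and monocyte surface protein, was the only call among 19 classical monocyte markers, at 4.82 and 3.97 TPM against 51.1 and 48.1 (11.3-fold, 3.23 ± 0.35, adjusted p = 0.000371).

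Among antigen presentation genes, H2-Ea-ps, the MHC class II alpha chain that mice of the C57BL6J haplotype are known not to express, had the largest difference of the genes named here. It was at 4.44 and 2.67 TPM against 2275 and 1727 (8.79 ± 0.30, adjusted p = 1.4e-07), and higher in DBA2J iMo (10.41). H2-DMb2, which helps load peptide on class II, was the 1 call of 12 in its list (1.51 ± 0.26, adjusted p = 0.00768). Of 23 tested class I presentation genes 1 was called higher and 1 lower. The median was -0.23, and 15 of 23 (65.2%) were below 0, against 52.6% of all tested genes. The higher one was H2-Q4 (0.92 ± 0.15, adjusted p = 0.00483) and the lower one was B2m, the shared class I light chain (4128 and 5687 against 2390 and 3204 TPM, -0.81 ± 0.20, adjusted p = 0.0491). The B2m call was lost in 14 of 22 alternative settings (adjusted p from 0.027 to 0.492). The class I genes H2-Q1, H2-Q2, H2-Q10, H2-Bl and H2-M2, named for the size of their differences and not as members of that list, were higher by 3.87 to 6.96. They and H2-Q4 have near-identical relatives whose alleles differ between strains, and their values are uncertain. Among 12 tested genes with known variants between the strains, Nlrp1b, an inflammasome sensor with close copies, was lower (-1.94 ± 0.27, adjusted p = 0.00218) and Glo1, which is duplicated in DBA2J and clears methylglyoxal, higher (1.30 ± 0.25, adjusted p = 0.0136). Alad (1.13), Nlrp1a (0.52), Myo5a (0.43), P2rx7 (0.15), Ahr (0.00), Slc11a1 (-0.02), Gpnmb (-0.60) and Nnt (-0.79) were not called.

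Further large differences lay outside these groups. Stab2, a scavenger receptor for hyaluronan known from sinusoidal endothelium, was at 0.04 and 0.13 TPM in C57BL6J and 45.6 and 47.4 in DBA2J (5.46 ± 0.19, adjusted p = 1.4e-07), and was higher in DBA2J AM (4.51) and IM (5.54) too. Ifi202b, a DNA-binding protein of the HIN-200 family, was at 0.23 and 0.32 TPM against 60.7 and 67.1 (5.67 ± 0.26, adjusted p = 7.16e-07), while Mndal, a family member 82.4 kb away, went the opposite way (65.7 and 123 against 2.35 and 5.04, -4.34 ± 0.43, adjusted p = 0.000211). Cebpe, a transcription factor of granulocyte maturation, was at 1.70 and 0 TPM against 28.9 and 21.0 (3.96 ± 0.80, adjusted p = 0.0179). Zfp791, a zinc finger gene, was at 1.53 and 1.36 TPM against 399.9 and 232 (6.97 ± 0.31, adjusted p = 6.16e-07). On the other side Trim12a, of the Trim5 family of antiviral factors, was at 71.6 and 126 TPM in C57BL6J and 0 and 0.53 in DBA2J (-6.28 ± 0.33, adjusted p = 2e-06). Trim30d, of the same family and chromosome, was at 22.6 and 43.3 against 0.73 and 0.61 (-4.27 ± 0.34, adjusted p = 5.04e-05); both have close copies, so their values are uncertain. Hpgd, which inactivates prostaglandins, was at 199 and 230.1 TPM against 13.4 and 27.1 (10.6-fold, -3.42 ± 0.47, adjusted p = 0.00208).

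Most of these differences had the same sign in iMo. Of the 343 genes higher in DBA2J pMo, 313 (91.3%) were above 0 in iMo, as were 52% of all tested genes, and 162 were called higher there and 0 lower; these 162 are 47.2% of the pMo calls and 65.1% of the 249 iMo calls (1.79% of tested genes). Of the 335 lower genes, 313 (93.4%) were below 0 in iMo, as were 45% of all, and 134 were called lower and 1 higher; the 134 are 40.0% of the pMo calls and 65.7% of the 204 iMo calls. In AM, where 700 genes (5.05%) were called, 3.27% higher and 1.77% lower, 117 of the higher and 66 of the lower pMo genes were called in the same direction. In IM, where 1677 genes (12.1%) were called, 3.96% higher and 8.12% lower, 118 and 143 were. All 4 cell types shared 63 calls higher and 41 lower, and 139 and 141 were called in pMo and in no other type, which is not a test of a difference. In AM 80.2% of the higher and 69.3% of the lower pMo genes had the same sign (59.5% and 39.1% of all tested genes), and in IM 65% and 79.4% (44.1% and 53.5% of all). The 4 comparisons use separate libraries but share 1 estimate of each gene's spread, so their calls are not independent. Whether the cell types of a strain come from the same animals is not stated.

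A direct test separated the pMo from the iMo strain difference for 22 genes (0.159%), 9 with a higher value in pMo (0.0649%) and 13 with a lower one (0.0937%). Gcnt1, which builds the core glycans of selectin ligands, was at 61.3 and 76.2 TPM in C57BL6J pMo and 9.34 and 9.77 in DBA2J pMo, and at 36.9 and 64.0 against 60.8 and 46.6 in iMo (difference of differences -2.85 ± 0.36, adjusted p = 0.0172). Id2, an inhibitor of basic helix-loop-helix factors, was at 180.3 and 174 TPM against 60.5 and 49.8 in pMo but at 108 and 122 against 179.9 and 160.5 in iMo (-2.23 ± 0.20, adjusted p = 0.00424). Cd93, a surface receptor of myeloid and endothelial cells, was higher in DBA2J in both, 87.4 and 79.2 against 895 and 964 TPM in pMo and 465 and 565 against 2327 and 2194 in iMo, and more so in pMo (1.33 ± 0.21, adjusted p = 0.0431). The mean of the other 3 cell types differed from pMo for 90 genes (0.649%), 50 higher (0.36%) and 40 lower (0.288%), with Siglece, Cd93, Id2, Gcnt1 and Cd22 among them. The count of 22 was 42 without C57BL6J pMo replicate 1, 6 without C57BL6J pMo replicate 2 and 44 without DBA2J pMo replicate 1. The count of 90 was 427 without C57BL6J pMo replicate 1, 32 without C57BL6J pMo replicate 2 and 53 without DBA2J iMo replicate 2.

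**Figure D5:**
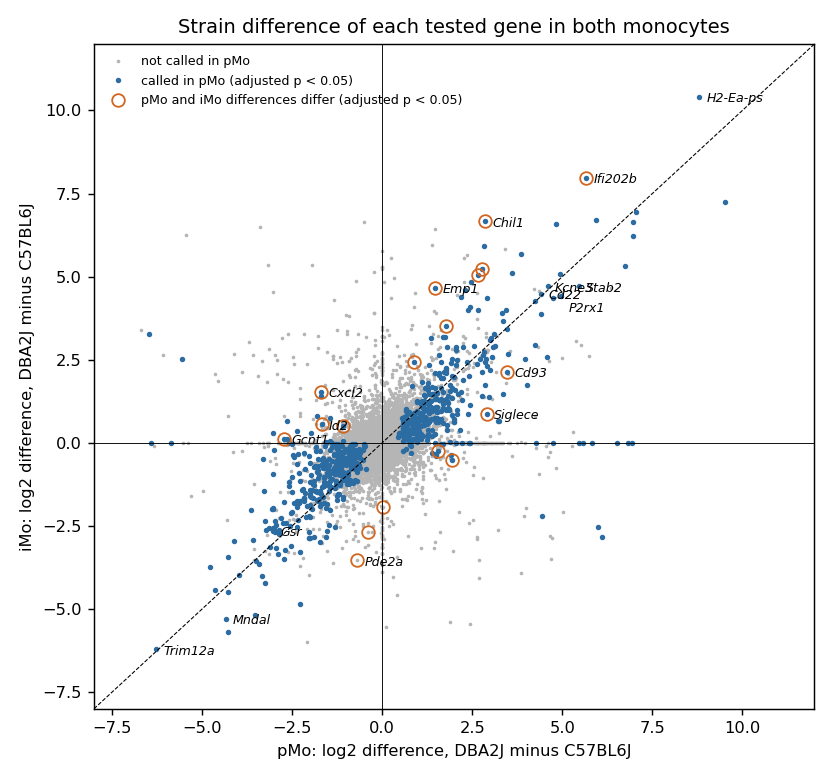
Log2 strain difference (DBA2J minus C57BL6J) of each of 13873 tested genes in pMo (x axis) and iMo (y axis); blue points were called in pMo, orange rings mark the genes, small RNA genes left out, whose 2 differences differ, and the dashed line is equality. Cd22, P2rx1 and Kcne3 lie near the line, while Gcnt1, Id2 and Cxcl2 lie to the left of 0 on the x axis and above 0 on the y axis.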

How the data were processed

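RNA was measured in 16 libraries and ATAC-seq peaks in 8 groups, of which the 2 pMo RNA groups and the 2 pMo peak lists are described. Per the labels, libraries were made from polyA RNA with dUTP marking of the second strand. The authors deposited TPM per gene for 24940 genes, and peak lists in which each peak has a score of unstated scale. The submitters' processing notes name mm10 as the build, and STAR, Bowtie and HOMER without saying what each did or in which version. All value columns used were matched to samples by name.

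Here Rn45s and Mir6236 were removed, each library was rescaled to 1e+06, and log2(TPM + 1) was fitted for the 13873 genes averaging 1 TPM or more over the 16 libraries in limma 3.58.1 (R 4.3.3) with a mean for each of 8 groups (8 residual degrees of freedom), eBayes with a mean-variance trend, and Benjamini-Hochberg adjustment over all tested genes. The script was tested on simulated data. No count test was used, since TPM are not counts. Replicate numbers did not pair the samples. The correlation of residuals between same-numbered libraries was 0.04 between the pMo groups, 0.12 between C57BL6J pMo and iMo and 0.05 between DBA2J pMo and iMo (28 pairs of groups, median 0.02, from -0.06 to 0.16, 4 over 0.1), so no block was used; whether pMo and iMo of a strain share animals is not stated.

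Named genes were the 3 of the title, the 12 largest called differences per direction (at least 10 TPM in the higher strain, no overlap between strains), up to 4 called members per list, all sort panel and known-variant genes, up to 10 called stress genes, and the 8 largest per direction in the contrast with iMo. The 12 held 8 higher and 4 lower miRNA or snoRNA genes, which were counted but not named; the list was then extended to 16 protein-coding genes per direction, a step chosen after values were seen, as were Cd93, Id2, Socs3, Cryab, Ccr3, Il5ra, Gsr, Rps2 and the 5 printed promoters. Some genes the rule allows are not printed. Members and lists were chosen with earlier results of these data known. Python 3.11.15 (pandas 2.3.3, numpy 2.4.6) served for the peak comparison and matplotlib 3.10.9 for figures. Promoters came from a RefSeq table of GRCm38.p6, matched by symbol and start site for the 5 printed genes. The RefSeq promoter of Cd22 did not sit at the start site used here, so none is printed for Cd22. Alternatives covered scaling, pseudocount, filter, trend, replicate block, libraries in the fit, single libraries left out and, added after the data were seen, protein-coding genes alone.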

Additional observations from a re-analysis of the deposited data

Results flagged for a closer look

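For 18 genes other than small RNA genes, limma's test of the difference between the pMo and the iMo strain differences passed an adjusted p of 0.05. Each value is the pMo difference minus the iMo difference on the log2 scale. Those higher in DBA2J in both cell types, and less so in pMo, were Chil1, a chitinase-like protein (-3.81), Emp1, a membrane protein (-3.20), the adhesion receptor Adgrg5 (-2.44), Gatm of creatine synthesis (-2.38), Ifi202b (-2.30), the lysosomal sulfatase Arsb (-1.75) and Pira6, an immunoglobulin-like receptor with close relatives (-1.56). Adgrg5, for example, was at 9.13 and 7.07 TPM against 63.7 and 58.5 in pMo and at 5.09 and 9.78 against 294 and 309 in iMo.

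The genes called lower in DBA2J pMo and above 0 in iMo were Cxcl2 (-3.22), Gcnt1 (-2.85), Id2 (-2.23) and Dpep2, a dipeptidase that cleaves leukotrienes (-1.60). In the other direction Cd93 (1.33) and Siglece (2.02) were higher in DBA2J in both monocytes and more so in pMo. Bst1 (CD157, 1.78) and Hcar2, a hydroxybutyrate receptor (2.46), were called higher in DBA2J pMo and not in iMo. Soga1 (1.98), the mitochondrial pyruvate carrier gene Mpc1 (2.29) and the phosphodiesterase gene Pde2a (2.85) were called lower in DBA2J iMo and not in pMo. Pde2a, for instance, was at 7.26 and 7.13 TPM against 3.88 and 4.31 in pMo and at 29.1 and 22.4 against 1.73 and 0.93 in iMo.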

How the results depend on the processing

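Of 97 genes followed singly for their pMo call (small RNA genes included, Cd93, Id2, Gsr, Rps2 and calls in iMo or between cell types not), 0 reversed in any setting, and 5 lost their call with scaling as deposited, 5 with median-of-ratios scaling, 38 when only the monocyte libraries were fitted, 77 when only the 4 pMo libraries were, 3 with the replicate block, and 19 to 38 when 1 pMo library was left out. Cd22, P2rx1, Kcne3, P2ry2, Siglece and Cd33 lost theirs in none. Median-of-ratios scaling shifted the median of all genes from -0.02 to 0.01 and gave 4 immediate early genes lower in pMo and 2 in iMo, and 4 heat shock genes in iMo. As deposited, 167 genes were higher in pMo, 53 differed from the other 3 types, and 3 heat shock genes were lower in iMo. The contrast of pMo with iMo gave 11 genes with quantile normalization, 11 with a pseudocount of 5 and 13 without the variance trend. Without a filter 148 genes differed from the other types and 1 immediate early gene was lower in iMo. With monocyte libraries alone the calls were 166 higher and 149 lower in pMo and 257 in iMo, with 1 immediate early gene and 1 heat shock gene in pMo and 0 immediate early genes in iMo; with pMo libraries alone they were 41 higher and 20 lower, with 0 and 0 stress genes. Why these counts moved was not tested, beyond the fewer residual degrees of freedom of smaller fits.

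The replicate number as a block gave 325 genes higher and 314 lower in pMo, and 10 in the contrast with iMo. Leaving out 1 library at a time gave 161 to 431 higher and 131 to 431 lower genes in pMo, 217 to 456 in iMo, 6 to 44 in the contrast with iMo and 32 to 427 against the other types. Immediate early genes numbered 3 to 5 in pMo and 0 to 6 in iMo, heat shock genes 2 to 5 and 0 to 2, and 0 to 1 stress genes were called between the cell types. A group left with 1 library was assumed to vary like the others. The contrast with the other 3 types had no value without both C57BL6J IM libraries or in the smaller fits. Depth limits every value and is unknown for TPM.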

Other observations

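The enzyme gene Gsr and the ribosomal protein gene Rps2, outside the fixed lists and chosen after their values were seen, also differed in pMo. Gsr, the glutathione reductase that keeps glutathione reduced, was at 247 and 272 TPM in C57BL6J and 26.1 and 36.2 in DBA2J (-3.03 ± 0.20, adjusted p = 1.24e-05), and was lower in iMo (-2.64), AM (-2.45) and IM (-2.68). Rps2, a ribosomal protein gene, was at 191 and 171 TPM against 19.01 and 26.6 (-2.95 ± 0.18, adjusted p = 7.71e-06), and has many near-identical copies that could take its reads. Genes of oxidative phosphorylation gave 0 calls among 30 tested (6 with an unadjusted p under 0.05, limma). In cell cycle genes 2 of 22 were called, both lower: the spindle checkpoint kinase Bub1b (4.70 and 5.13 TPM against 0.18 and 0.34) and the replication helicase subunit Mcm6 (11.8 and 17.9 against 2.63 and 3.23).

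The share of called genes was set out by chromosome, with no test. Chromosome 7, which holds Cd22, Siglece, Cd33, Kcne3, P2ry2, P2ry6 and Trim12a, had 82 calls among 1114 tested genes (7.36%), chromosome 17 had 7.22% and chromosome 1 had 7.02%, against 1.70% on chromosome 18 and 1.15% on the X. Of the 678 called genes, 197 (29.1%) had a called gene as the adjacent tested gene on either side. Over all tested genes 4.89% were called, 343 higher and 335 lower. That is a share of single genes and not the matching background, since a gene can have a neighbour on each side. The same neighbour share was not worked out for all tested genes, so whether called genes cluster was not tested. Of 113 adjacent called pairs, 101 differed in the same direction, and the like share of all adjacent pairs was not worked out.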
